A study of Mus musculus with 9 samples.

Results

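The IL-6 family of cytokines signals through receptor complexes that share the chain gp130, and 9 genes of this system were followed in mouse pancreatic tumor cells. They were chosen by name from a table of 24493 genes: the ligand genes Il6, Lif and Il11, the receptor genes Il6st, Il6ra, Lifr and Osmr, the transcription factor gene Stat3 and its feedback inhibitor gene Socs3. All 9 were found in the table, and 7 passed the filter for testing, which asked for 1 TPM or more in at least 3 of 9 libraries. Il6 and Il11 did not pass it and are described by their values. RNA sequencing covered 3 groups of 3 libraries: the derived line escape e2, the derived line escape e1, and the parental cells, with escape lines described by the series as resistant to immunotherapy. All came from a C57BL/6 background, were grown in culture in serum-containing DMEM and received no treatment. The labels do not say how the lines were derived, whether a line is 1 clone, or whether replicate libraries are from different cultures. The p-values therefore measure only how these libraries spread, which may be technical. Expression is given in TPM, a transcript abundance corrected for gene length and scaled to the same sum in every library, from which sequencing depth cannot be read.

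A ligand of this family binds its own receptor chain (IL-6 binds the product of Il6ra, IL-11 that of Il11ra1) or, for LIF and oncostatin M, a long signalling chain encoded by Lifr or Osmr. The complex then holds gp130, the product of Il6st, and JAK kinases on the receptor tails phosphorylate STAT3. STAT3 enters the nucleus and raises genes that include Socs3, whose protein binds gp130 and the kinases and dampens the signal. In pancreatic cancer IL-6 and LIF are known as signals exchanged between tumor cells and fibroblasts, and LIF is made by tumor cells as well.

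Promoter sequence is shown for 3 members whose levels turned out differently: Socs3, Lif and Il6st. Socs3 has the motif that STAT3 can bind, and Lif parted the escape lines. Il6st had the highest change from parental cells of the tested members in both lines on the log2(TPM + 1) scale. With 0.1 added in place of 1, this still held in e1, but in e2 Osmr (2.92) and Il6ra were above Il6st (2.46). With the authors' rlog values Osmr (2.31) was also above Il6st (2.03) in e2. The sequences are RefSeq's for the mouse assembly GRCm38.p6, read 5′ to 3′ on the gene's strand. The Lif and Il6st stretches lie upstream of the first annotated exon, and the Socs3 stretch lies outside the exons of GENCODE but inside a longer span that RefSeq gives the gene. Capitals mark a STAT motif (TTCNNNGAA) in Socs3 and an AP-1 motif (TGANTCA) in Lif. Both motifs read alike on either strand, and no match overlapped another.
Socs3, chr11:117969502-117969530, minus strand: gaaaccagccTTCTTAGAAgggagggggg
Lif, chr11:4257318-4257556, plus strand: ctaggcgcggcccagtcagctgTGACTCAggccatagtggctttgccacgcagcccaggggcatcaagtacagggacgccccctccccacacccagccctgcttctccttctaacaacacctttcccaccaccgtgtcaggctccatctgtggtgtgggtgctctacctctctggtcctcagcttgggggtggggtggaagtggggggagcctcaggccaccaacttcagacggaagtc
Il6st, chr13:112463820-112464069, plus strand: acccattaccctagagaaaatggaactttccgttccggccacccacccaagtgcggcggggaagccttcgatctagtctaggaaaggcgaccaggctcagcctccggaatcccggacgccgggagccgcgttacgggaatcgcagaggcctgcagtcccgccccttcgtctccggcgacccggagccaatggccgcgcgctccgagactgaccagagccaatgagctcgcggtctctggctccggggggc
The STAT motif of Socs3 began 154 bases before the start that RefSeq's promoter table uses, and the AP-1 motif of Lif began 228 bases before its start. In windows of 250 bases upstream, the STAT motif was in 1 of 11 windows of the members and in 7.02% of 32851 windows of all genes. The AP-1 motif was in 3 of 11 windows (Il6, Lif and Il11, the ligand genes) and in 6.75% of all windows. Il11 and Lifr had more than 1 window each, and the other window of Il11 held no AP-1 match. The window of Osmr lay wholly in annotated exons of Osmr. Il6st had neither in its window. Matches are descriptions of the letters and were not tested for binding.

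The labelled cell type was checked against its markers. Epithelial markers, 6 in number, summed to 1675 to 1735 TPM in e2, 1164 to 1207 TPM in e1 and 8044 to 9324 TPM in parental cells. Krt8 and Krt18, keratins of simple epithelium, were present in all libraries, at 344 TPM or more, but lower in both lines. Krt8 averaged 576 TPM in e2, 747 TPM in e1 and 1873 TPM in parental cells, and Krt18 averaged 1012, 377 and 2266 TPM. The other markers fell further. In the same order of groups, means were 28.1, 1.05 and 2264 TPM for Krt7, 72.2, 45.2 and 2059 TPM for Krt19, and 21.0, 9.56 and 227 TPM for Cdh1. Epcam, an epithelial surface protein, stood at 0.131 to 0.269 TPM in e2 and 0.248 to 0.329 TPM in e1, against 114 to 171 TPM in parental cells, so that this epithelial marker was nearly absent from the escape lines. Fibroblast markers, 10 in number, summed to 315 to 327 TPM in e2, 313 to 328 TPM in e1 and 0.680 to 1.03 TPM in parental cells. Of these, Lum was listed at 0 in all 9 libraries, Fap in all e1 libraries, and Col1a2, Col3a1, Dcn and Pdgfrb in all parental libraries. Leukocyte markers, 8 in number, summed to 7.34 to 8.13 TPM in e2, 3.30 to 4.24 TPM in e1 and 2.25 to 3.17 TPM in parental cells, with Cd3e listed at 0 throughout and Ptprc at 0.110 TPM or less. Cd68 averaged 5.43 TPM in e2, 3.41 TPM in e1 and 1.72 TPM in parental cells. Lyz2 was at 0.914 to 1.51 TPM in e2 and listed at 0 in the other groups. Cd74 averaged 0.890 TPM in e2, 0.149 TPM in e1 and 0.0795 TPM in parental cells. Csf1r, Ptprc and Itgam averaged highest in parental cells, each under 1 TPM. Endothelial markers, 4 in number, summed to 0.483 to 0.688 TPM in e2, 0.170 to 0.475 TPM in e1 and 0.478 to 0.885 TPM in parental cells. The summed fibroblast markers were thus higher in both lines than in parental cells, as were Il6st, Il6ra and Lifr below, and alike in e2 and e1, where those receptor genes differed. Single markers parted the lines: Dcn, a matrix proteoglycan gene, averaged 35.5 TPM in e2 and 0.148 TPM in e1, and Pdpn, the podoplanin gene, averaged 70.3 TPM in e2, 0.0518 TPM in e1 and 0.0722 TPM in parental cells, high in e2 as Osmr was. The part of these markers in the results was not tested. In bulk RNA a change in the share of cells and a change in RNA per cell cannot be told apart. Library 1 of e1 lay at least 1 log2 unit from the mean of the other e1 libraries in 222 genes, where the other 8 libraries had 83 to 103 such genes. Parental library 1 was apart from the other parental libraries for Osmr, Socs3, Fos and Cebpd. Values are given without these libraries where a call or a direction turned or the value moved most.

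Across the members, all 4 receptor genes, Stat3 and Socs3 were higher in e2 than in parental cells, Il6st, Il6ra, Lifr, Stat3 and Socs3 were higher in e1 too, and Lif, the tested ligand gene, did not pass as higher in either line. In e2 against parental cells 6 of 7 tested members were higher and 0 lower, where 73.5% of all 12769 genes tested were called, 40.8% higher and 32.7% lower. In e1 against parental cells 5 were higher and 1 lower, where 70.6% of genes were called, 35.7% higher and 34.9% lower. In e2 against e1, 6 were higher and 0 lower, where 70.3% of genes were called, 40.6% higher and 29.7% lower. The libraries of the groups compared did not overlap in 6 of 7 members in e2 against parental cells, 7 of 7 in e1 against parental cells and 6 of 7 in e2 against e1, while this held for 81.4%, 71.4% and 76.5% of all genes. Since most genes of these cells passed the test, a call alone says little, and sizes are given: in e2 all 6 members called were higher by 1 or more on the log2 scale, which held for 13.7% of all genes (1 of the 6, Osmr, was tested only because its e2 libraries passed the filter), and in e1 Il6st and Socs3 were, against 7.91% of all genes. Stat3 in e2, at 1.08, came under 1 with median-ratio scaling (0.988) and with the authors' rlog values (0.873). Il6ra in e1, at 0.999, came just above 1 with median-ratio scaling (1.005) and further with rlog values (1.13), and ranged from 0.910 to 1.47 over the alternatives. In e2 against e1, Osmr, Lif and Lifr were higher by 1 or more, against 13.1% of all genes. The median log2 fold change of the 7 members was 1.78 in e2 and 0.65 in e1 against parental cells, and that of all genes was 0.07 and 0.02. Both comparisons share the parental libraries. Fold changes here and below are on the log2(TPM + 1) scale ± SE, which understates the change of genes near 0.

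**Figure D1:**
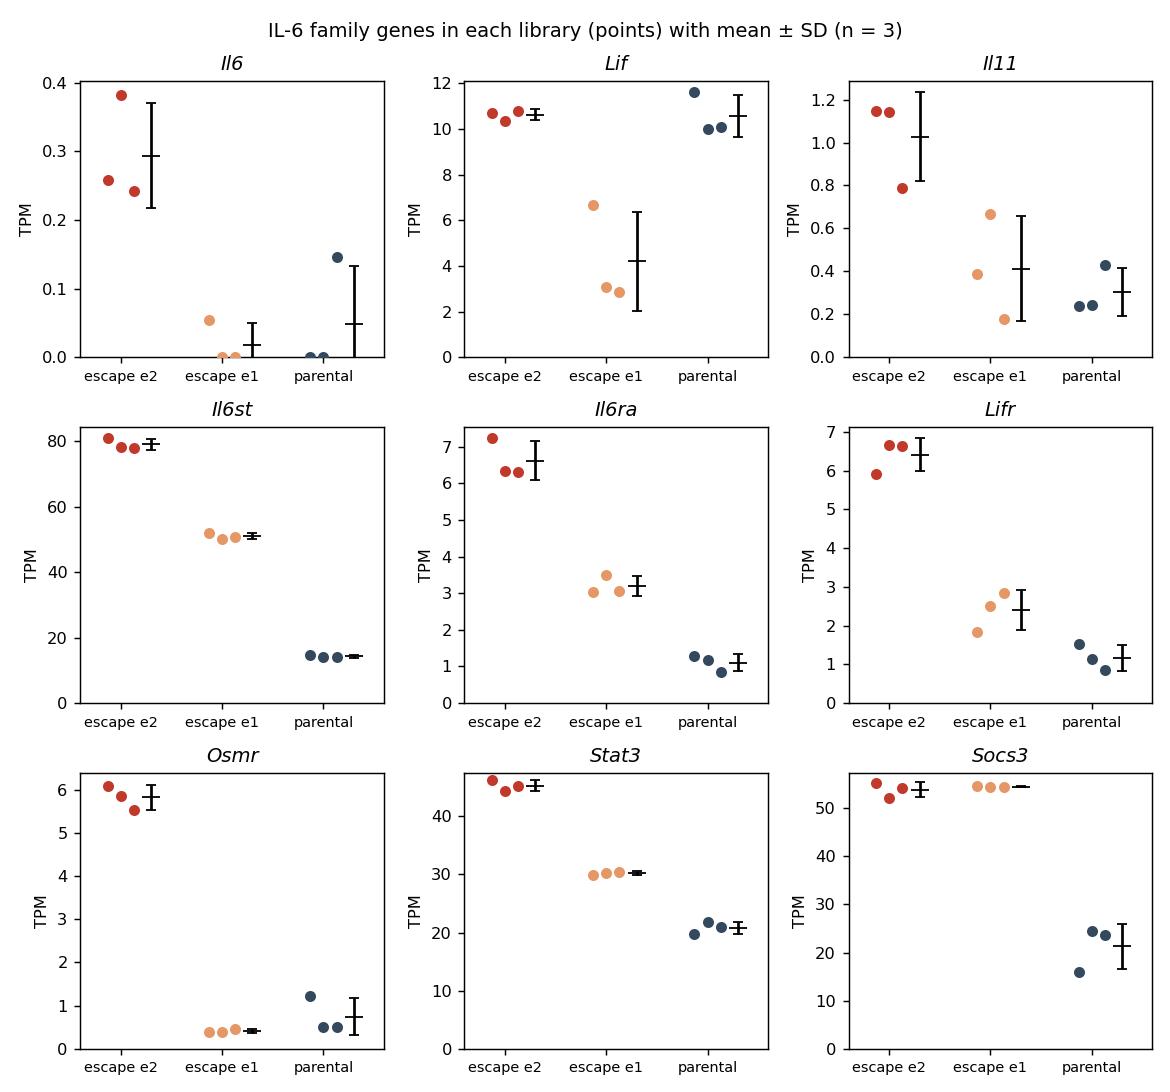
TPM of the 9 members in each library (points, 3 per group) with the mean ± SD beside them, for escape e2, escape e1 and parental cells; each panel has its own axis from 0, and error bars are cut there. Il6st has means of 79.0 TPM in e2, 50.9 TPM in e1 and 14.3 TPM in parental cells, Osmr is high in e2 alone of these groups, and Lif is low in e1.

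Of the ligand genes, Lif was the one with a clear level. It encodes leukemia inhibitory factor and lies on chromosome 11 (4257568 to 4272514). Lif stood at 10.7, 10.4 and 10.8 TPM in e2, 6.69, 3.06 and 2.84 TPM in e1, and 11.6, 9.99 and 10.1 TPM in parental cells. The e2 and parental libraries overlapped, and every e1 library was below them, with e1 library 1 about midway between its own group and the others. Lif fell in e1 by 1.23 ± 0.22 on the log2 scale against parental cells (adjusted p = 0.000794), and by more without e1 library 1 (-1.55, adjusted p = 6.05e-08). In e2 the log2 fold change from parental cells was 0.01 ± 0.22 (adjusted p = 0.97), with a 95% interval of -0.49 to 0.51. The difference between the lines was 1.24 ± 0.22 in e2 over e1 (adjusted p = 0.000775). Osm, the gene of oncostatin M, lies 16530 bases from Lif as its nearest coding neighbour and was listed at 0 in all 9 libraries.

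Il6 and Il11 were close to the bottom of the scale. Il6, on chromosome 5 (30013114 to 30019975), encodes interleukin 6 and was at 0.258, 0.382 and 0.242 TPM in e2, at 0.0541 TPM in 1 e1 library and at 0.147 TPM in 1 parental library, and it was listed at 0 in the other libraries of e1 and parental cells. Il11, on chromosome 7 (4772373 to 4782907), encodes interleukin 11 and was at 1.15, 1.14 and 0.789 TPM in e2, 0.389, 0.666 and 0.178 TPM in e1, and 0.239, 0.242 and 0.430 TPM in parental cells. For both genes every e2 library was above every library of the other groups, and e1 and parental libraries overlapped. In the fit with no filter on low values, Il6 was higher in e2 than in parental cells by 0.30 ± 0.06 (adjusted p = 0.00261) and Il11 by 0.63 ± 0.13 (adjusted p = 0.00316). In e1 the same fit gave -0.04 ± 0.06 for Il6 (adjusted p = 0.641) and 0.10 ± 0.13 for Il11 (adjusted p = 0.573) against parental cells. How many reads stand behind values this low cannot be read from TPM.

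Among 8 further ligand and ligand-partner genes, 3 were tested and none rose against parental cells: 0 were higher and 2 lower in each line. Over all genes, 40.8% were higher and 32.7% lower in e2, and 35.7% and 34.9% in e1. Of the 2 lower ligand genes, Cntf met the filter in full only in parental cells, which favoured a lower call. Clcf1, which encodes a cytokine that acts on the CNTF receptor, had the highest level of them, with means of 22.7 ± 1.10 TPM in e2, 22.3 ± 0.989 TPM in e1 and 25.6 ± 0.521 TPM in parental cells (SD, n = 3 each). Its log2 fold change was -0.16 ± 0.06 in e2 and -0.19 ± 0.06 in e1, and the call in e2 ended with the 10 highest genes removed (adjusted p = 0.0815), without e2 library 1 (0.111), without parental library 2 (0.0784) and without parental library 3 (0.0617). Cntf, the gene of ciliary neurotrophic factor, stood at 1.29 ± 0.330 TPM in e2, 0.670 ± 0.0382 TPM in e1 and 2.46 ± 0.429 TPM in parental cells and was lower in both lines (-0.60 ± 0.12 in e2 and -1.04 ± 0.12 in e1). Ctf1, the cardiotrophin gene, did not pass in e1 (0.39 ± 0.17, adjusted p = 0.0691) and passed without e1 library 1 (0.61, adjusted p = 0.000466). In e2 it did not pass either (0.29 ± 0.17, adjusted p = 0.152), and it passed there without e1 library 1 (adjusted p = 0.0154) and in the fit of the compared groups only (adjusted p = 0.0256). Osm and Il31 were listed at 0 in all libraries, and Ctf2, Il27 and Ebi3 stayed under 1 TPM.

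Among the members, the 4 receptor genes had higher log2 fold changes in e2 than Lif, Stat3 and Socs3. Il6st, on chromosome 13 (112464070 to 112506860), encodes gp130 and stood at 81.0, 78.1 and 78.0 TPM in e2, 52.0, 50.02 and 50.8 TPM in e1, and 14.8, 13.9 and 14.1 TPM in parental cells. The 3 groups were far apart and their libraries did not overlap. The log2 fold change was 2.39 ± 0.05 in e2 (adjusted p = 2.59e-10) and 1.76 ± 0.05 in e1 (adjusted p = 1.59e-09), and e2 was above e1 by 0.62 ± 0.05 (adjusted p = 2.8e-06). By mean level Il6st was above 85.2% of the genes tested in e2, 77.7% in e1 and 47.1% in parental cells. Il31ra, the related receptor gene 9811 bases from Il6st, was at 0.0209 TPM or less in all libraries.

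Il6ra and Lifr rose in both lines and more in e2. Il6ra, on chromosome 3 (89869324 to 89913196), encodes the chain that binds IL-6 and was at 7.22, 6.33 and 6.32 TPM in e2, 3.03, 3.50 and 3.05 TPM in e1, and 1.29, 1.17 and 0.852 TPM in parental cells. Its groups did not overlap, with changes of 1.86 ± 0.10 in e2 (adjusted p = 1.53e-07) and 0.999 ± 0.10 in e1 (adjusted p = 1.45e-05), and 0.86 ± 0.10 between e2 and e1 (adjusted p = 4.51e-05). Lifr, on chromosome 15 (7090610 to 7197489), encodes the LIF receptor chain and was at 5.91, 6.67 and 6.64 TPM in e2, 1.83, 2.49 and 2.85 TPM in e1, and 1.51, 1.13 and 0.857 TPM in parental cells. Here too the groups did not overlap, though e1 library 1 and parental library 1 were close. Lifr rose by 1.78 ± 0.14 in e2 (adjusted p = 2.05e-06) and by 0.65 ± 0.14 in e1 (adjusted p = 0.00229; 0.99 with a pseudocount of 0.1), and e2 was above e1 by 1.14 ± 0.14 (adjusted p = 6.09e-05). An antisense gene, Gm42809, overlaps 281 bases of Il6ra, and reads of a gene and its antisense partner cannot be told apart where the strand setting is not given.

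Osmr differed from the other member receptor genes in e1, where it did not pass as higher than in parental cells. It encodes the oncostatin M receptor chain and lies on chromosome 15 (6813568 to 6874968), 215644 bases from Lifr, its neighbour. Osmr was at 6.09, 5.86 and 5.52 TPM in e2, 0.3996, 0.381 and 0.456 TPM in e1, and 1.23, 0.499 and 0.494 TPM in parental cells. All e2 libraries were far above the rest, while e1 libraries were just under the parental ones. It passed the filter through its e2 libraries alone, so a difference of e2 from the other groups was built into its testing. Osmr rose in e2 by 1.99 ± 0.14 against parental cells (adjusted p = 1.18e-06; 2.19 without parental library 1) and was above e1 by 2.27 ± 0.14 (adjusted p = 7.63e-07), or by 3.53 with a pseudocount of 0.1. In e1 the value against parental cells was -0.28 ± 0.14 with a 95% interval of -0.60 to 0.05 (adjusted p = 0.114), and -0.08 without parental library 1 (adjusted p = 0.294).

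Of 4 other receptor genes of the family, 3 were tested, and in each line 2 were higher and 1 lower than in parental cells. Over all genes, 40.8% were higher and 32.7% lower in e2, and 35.7% and 34.9% in e1. The gene that was lower, Cntfr, passed the filter through its parental libraries alone, and Il27ra, 1 of those higher, through its escape libraries alone, so that these calls were built in. Il11ra1, which encodes the chain that binds IL-11, was at 39.6, 36.7 and 41.3 TPM in e2, 21.2, 30.2 and 32.0 TPM in e1, and 8.20, 8.23 and 6.74 TPM in parental cells. It rose by 2.21 ± 0.14 in e2 (adjusted p = 5.04e-07) and 1.71 ± 0.14 in e1 (adjusted p = 3.48e-06), or 1.89 in e1 without e1 library 1. The mouse genome holds near-identical copies of this gene, so its level is uncertain. Cntfr, which encodes the chain that binds CNTF, was at 0.0652 ± 0.0482 TPM in e2 and 0.0240 ± 0.0219 TPM in e1, against 3.15 ± 0.173 TPM in parental cells. Il27ra, of the IL-27 receptor, was at 1.22 ± 0.155 TPM in e2 and 1.58 ± 0.386 TPM in e1, against 0.373 ± 0.0264 TPM in parental cells. Among 4 genes of receptor shedding, the protease gene Adam17, whose product releases soluble receptor chains, rose in both lines (0.60 ± 0.06 in e2 and 0.55 ± 0.06 in e1), while Adam10, of a related protease, rose in e2 (0.48 ± 0.05) and fell in e1 (-0.18 ± 0.05). The other members of that list were Rhbdf1, at -0.01 ± 0.06 in e2 and 0.18 ± 0.06 in e1, and Rhbdf2, at -0.03 ± 0.06 in e2 and -0.32 ± 0.06 in e1, partners of ADAM17 in its transport. The e1 call of Rhbdf1 ended without e1 library 3 (adjusted p = 0.08) and without parental library 3 (adjusted p = 0.051).

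**Figure D2:**
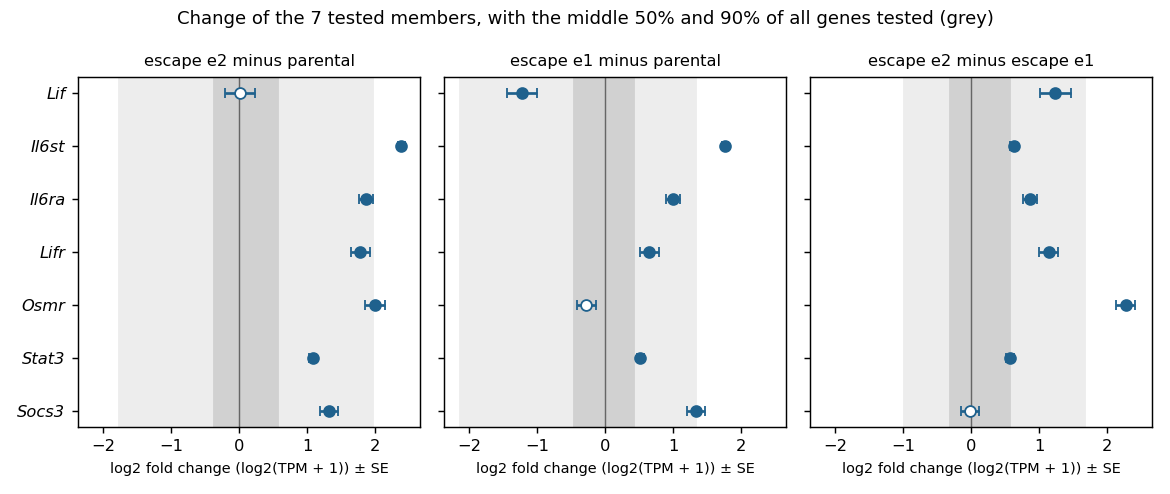
Log2 fold change ± SE of the 7 tested members (points; filled where adjusted p is under 0.05) in e2 against parental cells, e1 against parental cells, and e2 against e1, over grey bands that hold the middle 50% and 90% of all genes tested. In e2 Il6st and Osmr lie past the band of 90%, at 2.39 and 1.99, and Lif lies near 0, while in e1 Lif is the member at negative values that passed, at -1.23.

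Downstream of the receptors, Stat3 rose in steps and Socs3 rose in both lines. Stat3, on chromosome 11 (100886806 to 100939594), was at 46.2, 44.4 and 45.2 TPM in e2, 29.8, 30.3 and 30.5 TPM in e1, and 19.7, 21.8 and 20.9 TPM in parental cells. The groups did not overlap, with changes of 1.08 ± 0.05 in e2 (adjusted p = 6.66e-08), 0.52 ± 0.05 in e1 (adjusted p = 1.51e-05) and 0.57 ± 0.05 between e2 and e1 (adjusted p = 9.01e-06). Stat3 and its neighbour Stat5a run toward each other and overlap by 72 bases at their ends, where reads cannot be assigned without strand. Socs3, on chromosome 11 (117966079 to 117970336), was at 55.2, 52.1 and 54.1 TPM in e2, 54.6, 54.4 and 54.3 TPM in e1, and 16.0, 24.5 and 23.5 TPM in parental cells. All escape libraries were above all parental ones, and the libraries of e2 and e1 overlapped. Socs3 rose by 1.32 ± 0.13 in e2 (adjusted p = 1.19e-05) and by 1.34 ± 0.13 in e1 (adjusted p = 1.18e-05), or by 1.13 and 1.15 without parental library 1, the lowest. Between e2 and e1 it differed by -0.02 ± 0.13, with a 95% interval of -0.31 to 0.28 (adjusted p = 0.923).

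Of 6 kinase, STAT and adaptor genes next to these receptors, 4 were higher and 1 lower in e2, and 3 higher and 2 lower in e1. With 73.5% of all genes called in e2 and 70.6% in e1, the share called in this list is near the background. Jak1, the main kinase at gp130, stood at 40.9 ± 2.01 TPM in e2, 38.7 ± 3.87 TPM in e1 and 31.8 ± 2.28 TPM in parental cells, a rise of 0.35 ± 0.08 in e2 and 0.27 ± 0.08 in e1. The e1 call of Jak1 ended without parental library 1 (adjusted p = 0.0566), e1 library 2 (0.0591) or e1 library 3 (0.0565). Jak2, a second kinase of the complex, was lower in both lines, with means of 34.0 ± 0.154 TPM in e2, 8.86 ± 1.66 TPM in e1 and 52.1 ± 2.25 TPM in parental cells (log2 fold changes -0.60 ± 0.11 in e2 and -2.44 ± 0.11 in e1). Tyk2, the related kinase, rose in e2 (0.65 ± 0.15) and stood at 0.10 ± 0.15 in e1 (adjusted p = 0.565), where it passed without e1 library 1 (0.30, adjusted p = 0.00371). Stat5a, a STAT gene best known downstream of other cytokine and hormone receptors, rose by 2.19 ± 0.21 in e2 and 0.78 ± 0.21 in e1 (1.09 in e1 without e1 library 1). Stat5b rose by 0.66 ± 0.09 in e2 and 0.59 ± 0.09 in e1. Ptpn11, whose phosphatase SHP2 docks on gp130, was lower in e1 (-0.48 ± 0.09) and stood at -0.07 ± 0.09 in e2 (adjusted p = 0.518). Between the lines 4 of the 6 (Jak2, Tyk2, Stat5a and Ptpn11) were higher in e2 than in e1 and 0 lower. Over all genes, 40.6% were higher and 29.7% lower in that comparison, so the share called is again near the background. Tyk2 was higher by 0.54 ± 0.15, or 0.34 without e1 library 1, and Jak2 had the widest difference of the 6 (1.84 ± 0.11).

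Of 7 other genes that restrain the pathway, 3 were higher and 2 lower in e2, and 2 were higher and 3 lower in e1, again a share near the 73.5% and 70.6% of all genes called. Socs2, a SOCS gene best known downstream of STAT5, was at 3.17, 3.52 and 3.06 TPM in e2, 0.406, 0.327 and 0.467 TPM in e1, and 11.2, 9.06 and 10.4 TPM in parental cells. It fell in both lines, with a log2 fold change of -1.40 ± 0.09 in e2 and -3.0016 ± 0.09 in e1. Cish, of the same family, rose in e2 to 6.997 ± 0.354 TPM and fell in e1 to 1.17 ± 0.240 TPM, against 3.61 ± 0.218 TPM in parental cells. Socs1, the closest inhibitor of JAK kinases to SOCS3 in action, had a log2 fold change of -0.03 ± 0.10 in e2 (adjusted p = 0.808) and 0.11 ± 0.10 in e1 (adjusted p = 0.39). The phosphatase gene Ptpn6 fell in both lines (-1.70 ± 0.20 in e2 and -2.11 ± 0.20 in e1). Pias3, which encodes an inhibitor of STAT3 at DNA, rose in e2 (0.98 ± 0.21) and passed in e1 when e1 library 1 was left out (0.70, against 0.40 ± 0.21 with it, adjusted p = 0.000170 and 0.119). The phosphatase genes Ptpn1 and Ptpn2 rose in e1, by 0.38 ± 0.05 and 0.41 ± 0.10. In e2 Ptpn1 stood at 0.05 ± 0.05 (adjusted p = 0.364), and the call of Ptpn2 (0.29 ± 0.10, adjusted p = 0.0279) ended with median-ratio scaling (adjusted p = 0.129), with the authors' rlog values (0.123), with the library number as a block (0.0508), and without any 1 of parental library 1, parental library 3 or an e2 library (0.0529 to 0.0933).

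**Figure D3:**
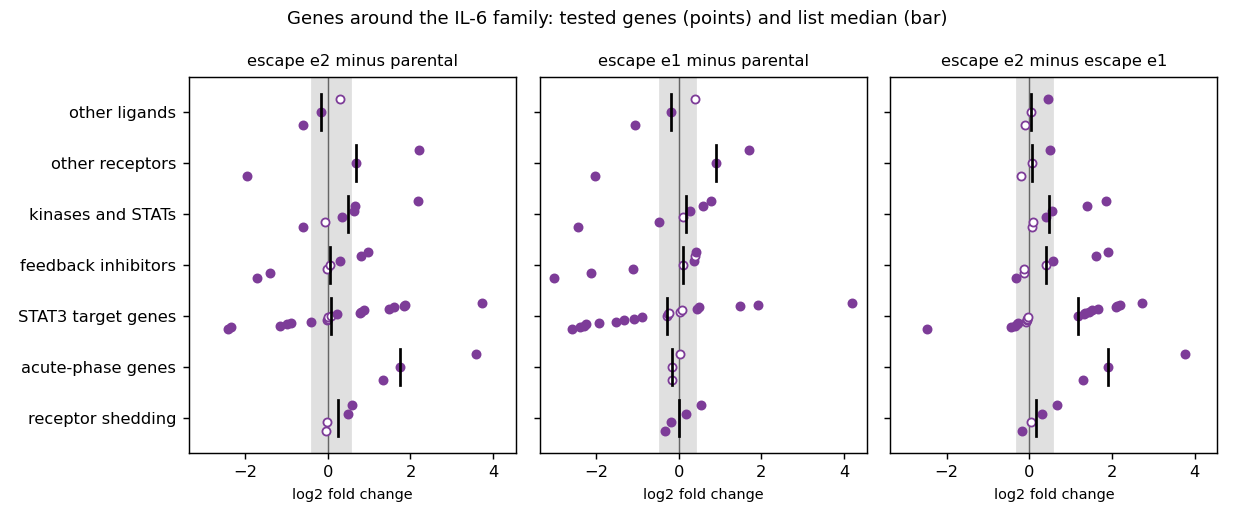
Log2 fold change of the tested genes (points; filled where adjusted p is under 0.05) in 7 lists around the IL-6 family, with each list's median (bar), for e2 against parental cells, e1 against parental cells, and e2 against e1; grey marks the middle 50% of all genes tested. STAT3 target genes spread to both sides against parental cells, with medians of 0.08 in e2 and -0.28 in e1, and have a median of 1.16 in e2 against e1.

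Of 20 genes known as STAT3 targets, 19 were tested, with calls in both directions and a share called near that of all genes. In all, 9 were higher and 6 lower in e2 against parental cells (median 0.08), and 5 were higher and 10 lower in e1 (median -0.28). Over all genes, 40.8% were higher and 32.7% lower in e2, and 35.7% and 34.9% in e1. Between the lines, 10 were higher and 5 lower in e2 than in e1, with a median of 1.16 where that of all genes was 0.09. In that comparison 40.6% of all genes were higher and 29.7% lower. Timp1, a protease inhibitor, and Twist1, a transcription factor of mesenchymal transition, rose in both lines. Timp1 stood at 278 ± 5.39 TPM in e2, 349 ± 64.2 TPM in e1 and 91.1 ± 3.88 TPM in parental cells, and Twist1 at 32.1 ± 1.64 TPM in e2, 44.5 ± 5.004 TPM in e1 and 1.49 ± 0.139 TPM in parental cells. The kinase genes Pim1 and Pim3 and the adhesion gene Icam1 fell in both. Pim1, often used as a readout of STAT3, stood at 8.72 ± 0.450 TPM in e2, 9.22 ± 1.49 TPM in e1 and 48.5 ± 3.802 TPM in parental cells, so that it was low in the groups where Socs3 was high.

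Several targets were high in e2 and low in e1. Il4ra, the IL-4 receptor gene, was at 92.5, 92.4 and 93.5 TPM in e2, 18.4, 22.0 and 22.2 TPM in e1, and 29.3, 23.5 and 22.8 TPM in parental cells. It rose in e2 (1.85 ± 0.10), and its e1 value of -0.26 ± 0.10 (adjusted p = 0.0427) lost its call under most alternatives, for example without parental library 1 (0.131), without e1 library 1 (0.106) or without any 1 e2 library (0.0621 to 0.0626). Klf4, a transcription factor gene of epithelial and stem cells, was at 56.0, 56.3 and 57.3 TPM in e2, 8.24, 7.60 and 7.19 TPM in e1, and 29.1, 34.0 and 33.5 TPM in parental cells. Klf4 thus rose in e2 (0.80 ± 0.07) and fell in e1 (-1.94 ± 0.07), and e2 was above e1 by 2.73 ± 0.07 (adjusted p = 3e-09). Cebpb, of a transcription factor of the acute-phase response, rose in e2 (1.47 ± 0.12) and stood at 0.04 ± 0.12 in e1 (adjusted p = 0.762). Cebpd, its relative, rose in e2 by 0.88 ± 0.26 (1.23 without parental library 1) and stood at -0.28 ± 0.26 in e1 (adjusted p = 0.357), a value that turned to 0.07 without parental library 1 (adjusted p = 0.677). Bcl3, a nuclear NF-kB cofactor, fell in e1 (-2.58 ± 0.12), and its e2 value of -0.40 ± 0.12 lost its call without parental library 3 (adjusted p = 0.0645) or e2 library 2 (0.0587). Junb, an AP-1 gene, had the pattern of Lif, with a fall in e1 (-1.31 ± 0.08) and a value of 0.01 ± 0.08 in e2 (adjusted p = 0.948). Fos was at 221, 213 and 220 TPM in e2, 46.3, 53.6 and 50.5 TPM in e1, and 23.9, 95.6 and 88.5 TPM in parental cells, and its e2 value was 1.87 ± 0.48 (adjusted p = 0.00972), or 1.23 without parental library 1 (adjusted p = 1.9e-06). Its e1 value, -0.23 ± 0.48, became -0.87 without parental library 1 (adjusted p = 1.56e-05). Myc went the other way, higher in e1 (1.49 ± 0.10) and lower in e2 (-0.997 ± 0.10) than in parental cells. Ccnd1, the cyclin D1 gene, rose in e2 (0.78 ± 0.08) and fell in e1 (-0.88 ± 0.08). Bcl2l1, which encodes the survival protein BCL-XL, fell in e1 (-1.52 ± 0.06) and stood at -0.01 ± 0.06 in e2 (adjusted p = 0.862), and Vegfa, the vascular growth factor gene, fell in both lines (-0.89 ± 0.07 in e2 and -2.24 ± 0.07 in e1). Birc5, the survivin gene, rose a little in both (0.22 ± 0.06 in e2 and 0.48 ± 0.06 in e1), and Mcl1, another survival gene, rose in e1 (0.44 ± 0.05). Batf, the target not tested, was at 0.864, 1.40 and 1.83 TPM in e1 and at 0.101 TPM or less in every e2 and parental library.

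Acute-phase genes, which IL-6 family cytokines induce in liver and mucosa, were seen mainly in e2. Of 13, 3 were tested, and all 3 passed the filter through e2 libraries alone, so that their call in e2 was built in. Lcn2, the iron-sequestering lipocalin 2, was at 12.3, 11.9 and 13.3 TPM in e2, listed at 0 in all e1 libraries, and at 0.0884, 0.0851 and 0.210 TPM in parental cells. Steap4, a metalloreductase gene, was at 2.80, 2.47 and 2.996 TPM in e2, listed at 0 in all e1 libraries, and at 0.119, 0.0958 and 0.142 TPM in parental cells. Hp, the gene of haptoglobin, was at 1.64, 1.95 and 1.18 TPM in e2 and at 0.144 TPM or less in each e1 and parental library. In every case the e2 libraries were above all others. Saa3, a serum amyloid gene, was at 0.359, 0.845 and 0.634 TPM in e2, while Saa1 and Orm1 were listed at 0 in all libraries. The fibrinogen genes Fga, Fgb and Fgg, the serum amyloid gene Saa2, Lrg1, Reg3b and Reg3g were at 0.184 TPM or less everywhere.

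**Figure D4:**
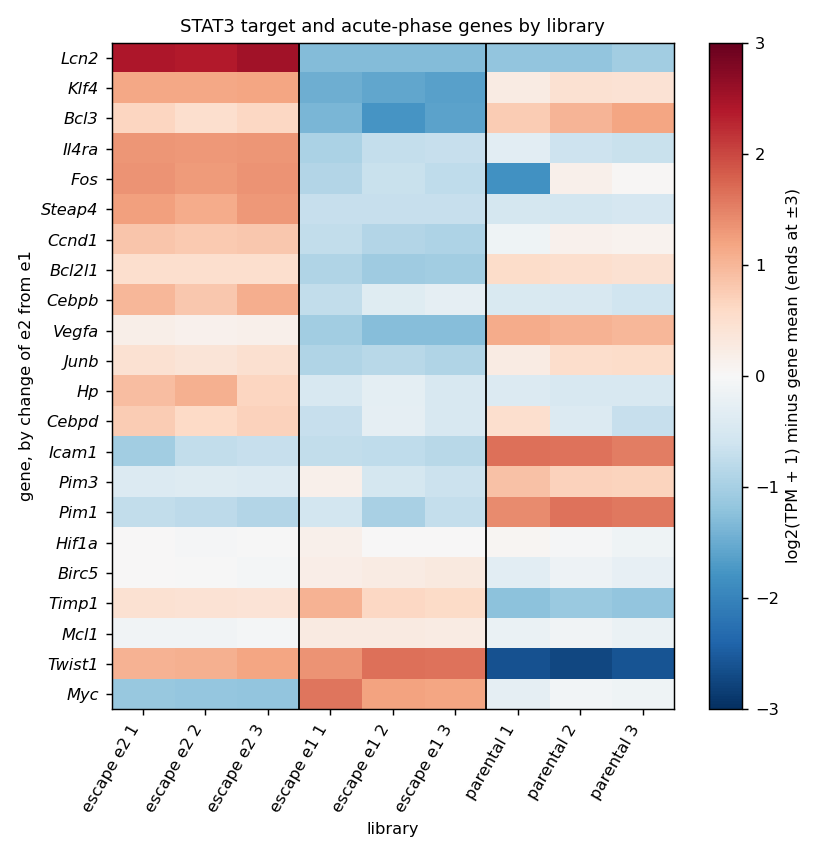
Heat map of log2(TPM + 1) minus the gene's mean for 19 STAT3 target genes and 3 acute-phase genes (rows, ordered by the change of e2 from e1) in the 9 libraries (columns: escape e2, escape e1, parental). The upper rows, such as Lcn2, Klf4 and Il4ra, are high in e2 and low in e1, and Myc, in the last row, is high in e1; for Fos, parental library 1 is far below the other parental libraries.

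Ordered by mean TPM, which corrects for length, the members ranked alike in part. In e2 the order was Il6st, Socs3, Stat3, Lif, Il6ra, Lifr, Osmr, Il11 and Il6, and the ranges of Il6ra, Lifr and Osmr overlapped with their neighbours. In e1 it was Socs3, Il6st, Stat3, Lif, Il6ra, Lifr, Osmr, Il11 and Il6, with overlaps between Lif and Il6ra and between Osmr and Il11. In parental cells it was Socs3, Stat3, Il6st, Lif, Lifr, Il6ra, Osmr, Il11 and Il6, with overlaps between Socs3 and Stat3, Lifr and Il6ra, and Il6ra and Osmr. Within a library the level of Il6st was 11.2 to 12.4 times that of Il6ra in e2, 14.3 to 17.2 times in e1 and 11.5 to 16.6 times in parental cells, and the parental range overlapped those of both lines. The level of Il6st was 13.3 to 14.1 times that of Osmr in e2, 111 to 131 times in e1 and 12.0 to 28.5 times in parental cells. Lifr was 0.972 to 1.20 times Osmr in e2, 4.59 to 6.55 times in e1 and 1.23 to 2.27 times in parental cells, so that both long chains were at about the same level in e2.

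Genes whose pattern was most like that of a member were sought by Pearson correlation of log2(TPM + 1) over the 9 libraries, among 4338 genes whose group means spanned at least 1. The 9 points fall into 3 groups, so r mostly describes the order and spacing of group means. Lif was most like Lama5, a laminin subunit gene (r = 0.990), and Lipg, an endothelial lipase gene (r = 0.982), and these were the 2 genes within 0.01 of the highest r. Osmr was most like Rcan2, a calcineurin regulator gene (r = 0.999), and Aim2, a DNA sensor gene (r = 0.997), with 42 genes within 0.01 of the highest. Socs3 was most like Ltbp4, of a TGF-beta binding protein (r = 0.998), and Vim, the intermediate filament vimentin (r = 0.997), with 7 genes within 0.01. For Il6st the first was Prkar2b (r = 0.9996), a regulatory subunit of protein kinase A, followed by the protocadherin gene Pcdh18 (r = 0.999), with 99 genes within 0.01. For Stat3 they were Sacm1l (r = 0.999), of a phosphoinositide phosphatase, and Orai3 (r = 0.999), of a calcium channel, with 87 genes within 0.01. For Il6ra they were Ndufs4 (r = 0.996), of respiratory complex I, and Ap3b1 (r = 0.994), of an adaptor complex, with 92, and for Lifr they were Pnrc1 (r = 0.996), of a nuclear receptor coactivator, and Ctsb (r = 0.995), the cathepsin B gene, with 46.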

How the data were processed

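RNA sequencing of 9 libraries, 3 each of escape e2, escape e1 and parental cells, was analysed from a gene table of TPM as the authors deposited it. Groups come from the sample titles. A second deposited table holds rlog values on a log2 scale, used as an alternative. Of the authors' tools, the submitters' processing notes name Salmon, DESeq2 and the mm10 build. No source used here gives versions, annotation or strand. TPM keeps no depth, so no counting interval is given.

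Of 24493 genes, 12769 reached 1 TPM in 3 or more libraries, and their log2(TPM + 1) values entered a model of 3 group means in limma 3.58.1 under R 4.3.3, with trended, robust empirical Bayes. Two-sided p-values were adjusted by Benjamini-Hochberg over all genes tested, with a threshold of 0.05. The steps were tested on simulated data. Members, lists, motifs and the rule for named genes (up to 3 called genes per list, direction and comparison, and the 2 genes most like each member) were chosen with earlier results of these data known, and the text names some further list genes. A few list genes are not reported here and are left out of the lists' counts. Gene positions are RefSeq's (GRCm38.p6), matched by symbol for all 9 members, and overlaps and neighbours are GENCODE vM21's. The main fit did not pair samples by library number. Alternatives were another pseudocount (0.1), a filter of 5 TPM or none, scaling by median ratios, the table without its 10 highest genes, the rlog values, separate fits per pair of groups, a block for library number, plain empirical Bayes, and leaving out each library; their use on the lists was added after the data were seen.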

Additional observations from a re-analysis of the deposited data

Results flagged for a closer look

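The change from parental cells differed between escape e2 and escape e1 in 6 of the 7 tested members, as the comparison of e2 with e1 tests directly with the parental values cancelling out. The difference, e2 minus e1 on the log2(TPM + 1) scale, was 2.27 for Osmr, 1.24 for Lif, 1.14 for Lifr, 0.86 for Il6ra, 0.62 for Il6st and 0.57 for Stat3. In that comparison 70.3% of all genes tested were called. Without e1 library 1 the difference was 1.56 for Lif and 2.27 for Osmr.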

How the results depend on the processing

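Each member's 3 log2 fold changes, 21 in all, were recomputed under 18 alternatives, and 371 of 378 values kept their direction and their side of the threshold. The other 7 changed sign in results that had not passed. For Lif in e2 against parental cells the values were -0.0800 with median-ratio scaling, -0.0730 with rlog values, -0.0252 without parental library 2, -0.0188 without parental library 3 and -0.000746 without e2 library 3, and leaving out 1 library gave -0.0252 to 0.0749. For Socs3 in e2 against e1 they were 0.0299 with the 10 highest genes removed and 0.00642 without e2 library 2, and leaving out 1 library gave -0.0346 to 0.00642. The cause was not tested. A pseudocount of 0.1 moved some called values by over 1.5 times: Lifr in e1 against parental cells to 0.99 and Osmr in e2 against e1 to 3.53. Of the 7 tested members 6 were called in each comparison under the alternatives run, except with no filter, where Il6 and Il11 entered and 8 of 9 were called in e2 against parental cells and in e2 against e1. With no filter, 10908 of 19340 genes were called in e2 against parental cells. In e2 against e1, the alternatives other than leaving out a library called 7630 to 10038 genes. Counts of all genes called stayed within 1.5 times, but the balance of directions moved with scaling. In e2 against parental cells 5209 genes were higher and 4174 lower, against 4633 and 4828 with median-ratio scaling and 4625 and 4808 with rlog values, and in e2 against e1 5189 and 3792 became 4624 and 4449, and 4656 and 4467. Leaving out 1 library gave 8683 to 10246 genes in e2 against parental cells, 8348 to 9695 in e1 against parental cells and 8198 to 9331 in e2 against e1. Samples with the same library number had correlations of deviations from -0.130 to 0.0499. A library correlated best with its own number in 9 of 18 cases. Each such choice was among 3 libraries, so these values cannot decide whether the numbers pair the samples. With the library number as a replicate block, 9163, 8742 and 8740 genes were called in the same order of comparisons, and the same counts of members, 6 each. In the lists the block also ended the calls of Ptpn2 in e2 against parental cells and Il4ra in e1 against parental cells.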
